A study of Mus musculus with 14 samples.

Results

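The genes described here are 10 markers of resident macrophages and Kupffer cells, 10 of the 24732 features in the count tables: Clec4f, Vsig4, Cd5l, Timd4, Marco, Folr2, Lyve1, F13a1, Cd163 and Mrc1. They were taken by feature name from the tables of both tissues. RNA came from aorta and liver of BT3xHuBL and HuBL mice kept for 52 weeks on a normal laboratory diet, with 3 BT3xHuBL aortas, 3 HuBL aortas, 4 BT3xHuBL livers and 4 HuBL livers. All 4 groups carry HuBL, so the comparison of genotypes concerns the addition of BT3. The labels do not explain the strain abbreviations. From the literature of the field, HuBL denotes mice without the low-density lipoprotein receptor that carry human apolipoprotein B, and BT3 a T cell receptor transgene whose T cells recognise that protein. The labels give no age at the start, and they do not say whether each library is a separate animal, so p-values measure the spread between libraries, which may in part be technical.

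Resident macrophages settle in a tissue and largely renew there, whereas other macrophages arise from blood monocytes that enter later. Kupffer cells are the resident macrophages of the liver sinusoids, where they clear bacteria, lipoprotein particles and dying cells from the blood, and they carry a surface and secretory programme that depends on the nuclear receptor Nr1h3 and on signals from neighbouring endothelium. In arteries, resident macrophages sit mainly in the outer layer and express the hyaluronan receptor Lyve1, the folate receptor Folr2 and the mannose receptor Mrc1, while plaques also hold lipid-laden cells marked by Trem2, Gpnmb and Spp1.

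The libraries count reads near the 3′ end of transcripts, so levels are given as CPM, counts scaled to a common library total with TMM factors over all 14 libraries, and genes can be set side by side without a length correction. Depth ran between 41933263 and 65539765 counts in aorta and between 13228123 and 17992459 in liver. Defining genes separated the tissues as labelled: Acta2, smooth muscle actin, averaged 3775 and 4006 CPM in BT3xHuBL and HuBL aortas and 3.05 and 6.27 CPM in the livers, and Alb, albumin, averaged 0.0409 and 0.196 CPM in the aortas and 114690 and 116706 CPM in the livers. In the same groups, Cd68, a marker of all macrophages, averaged 366 ± 39.6 and 375 ± 21.4 CPM in aorta (SD, n = 3 each), against 13.4 ± 3.23 and 13.96 ± 1.89 CPM in liver (SD, n = 4 each). BT3xHuBL aorta 3 had 0 counts of Trav14-1, a T cell receptor segment, where BT3xHuBL aortas 1 and 2 had 4 and 52 and all HuBL libraries had 0. BT3xHuBL livers 1 to 4 had 1, 1, 0 and 2 counts of it. The segment was chosen after its values were seen, and at these counts it settles the genotype label of neither BT3xHuBL aorta 3 nor BT3xHuBL liver 3. With either library left out, 0 of the 10 genes were called between the genotypes in its tissue.

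In GENCODE M21 (GRCm38) all 10 genes are protein-coding. Clec4f lies at chr6:83644542-83656187, Vsig4 at chrX:96247203-96293438, Cd5l at chr3:87357881-87371073, Timd4 at chr11:46810800-46844332 and Marco at chr1:120474538-120505024. Folr2 lies at chr7:101839988-101857194, Lyve1 at chr7:110850607-110863239, F13a1 at chr13:36867178-37050244, Cd163 at chr6:124304656-124330527 and Mrc1 at chr2:14229392-14332057. Promoter windows from 250 bases before to 50 bases after a gene's start were read from RefSeq (GRCm38.p6) for 9 of the 10 genes, all but Lyve1, and gave 11 windows. The windows below are shown because they belong to genes that stand for the patterns found: Clec4f and Marco were near or at 0 in aorta and abundant in liver, and Cd5l and Mrc1 were abundant in both tissues. Capitals mark matches to 3 short motifs on either strand. GGAAGT is a core bound by ETS factors such as Spi1, a master regulator of myeloid genes. The letters TGGGAA are the core bound by Rbpj. An element bound by MAF factors is TGCTGA. Each window is written 5′ to 3′ on the strand of its gene.
Clec4f, chr6:83656067-83656366, minus strand: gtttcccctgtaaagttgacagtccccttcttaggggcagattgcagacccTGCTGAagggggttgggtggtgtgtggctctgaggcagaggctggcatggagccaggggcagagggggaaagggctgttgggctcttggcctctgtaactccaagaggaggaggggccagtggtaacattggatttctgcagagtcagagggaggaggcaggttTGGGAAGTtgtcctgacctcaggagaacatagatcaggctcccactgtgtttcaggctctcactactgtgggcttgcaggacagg
Marco, chr1:120504975-120505274, minus strand: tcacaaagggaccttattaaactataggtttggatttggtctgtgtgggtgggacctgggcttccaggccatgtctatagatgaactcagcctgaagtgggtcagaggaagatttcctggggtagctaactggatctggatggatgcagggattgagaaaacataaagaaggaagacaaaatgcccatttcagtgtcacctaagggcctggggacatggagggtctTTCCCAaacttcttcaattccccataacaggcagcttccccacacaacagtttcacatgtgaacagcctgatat
Cd5l, chr3:87357631-87357930, plus strand: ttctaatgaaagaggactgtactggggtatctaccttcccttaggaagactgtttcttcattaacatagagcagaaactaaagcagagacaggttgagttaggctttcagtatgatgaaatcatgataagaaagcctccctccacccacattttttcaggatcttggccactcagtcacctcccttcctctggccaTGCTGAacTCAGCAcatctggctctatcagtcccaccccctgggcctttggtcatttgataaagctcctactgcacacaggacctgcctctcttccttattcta
Mrc1, chr2:14229164-14229463, plus strand: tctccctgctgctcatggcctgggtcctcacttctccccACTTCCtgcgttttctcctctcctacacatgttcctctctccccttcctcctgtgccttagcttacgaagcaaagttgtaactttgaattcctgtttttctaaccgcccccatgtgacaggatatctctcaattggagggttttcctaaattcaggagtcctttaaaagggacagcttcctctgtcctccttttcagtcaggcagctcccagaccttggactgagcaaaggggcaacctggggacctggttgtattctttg

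The Clec4f window held 1 match to each motif, and its capitals TGGGAAGT are the Rbpj core and the ETS core overlapping in 4 bases. GENCODE starts Clec4f upstream of RefSeq, so those letters fall inside the first exon of the GENCODE model. The Marco window held the Rbpj core once, on the opposite strand, and the Mrc1 window the ETS core once, also on the opposite strand. The Cd5l window held the MAF element on each strand, a pair of bases apart. The ETS core occurred in 6 of the 11 windows and in 23.8% of the 32851 mouse promoter windows in the same RefSeq table. The Rbpj core occurred in 3 of 11 and in 25.6%, and the MAF element in 6 of 11 and in 19.5%. These matches describe the letters in the windows and were not tested for binding.

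Across the tissues the 10 genes fell into different patterns, as the plot of levels by library shows. Clec4f, Vsig4, Timd4 and Marco were lower in aorta than in liver in both genotypes, whereas Cd5l, Folr2, F13a1, Cd163 and Mrc1 were higher in aorta. Lyve1 was higher in aorta in BT3xHuBL mice and not distinguishable between tissues in HuBL mice. By the quasi-likelihood test of edgeR, adjusted by Benjamini-Hochberg over 14912 features, at a threshold of 0.05, 10 of 10 genes were called between aorta and liver in BT3xHuBL mice, 6 higher and 4 lower in aorta. In HuBL mice 9 of 10 were called, 5 higher and 4 lower. Such calls were common: 83.1% of all tested features passed in BT3xHuBL mice (43.3% higher, 39.8% lower) and 83% in HuBL mice (44% higher, 39% lower), so the number called says little about these genes, and their sizes and directions carry the description. Of the 9 genes with counts in both tissues, 7 had tissue ranges that did not overlap in BT3xHuBL mice and 8 in HuBL mice, against 81.3% and 82.3% of all features. Each tissue was deposited as a table of its own, so tissue and any difference in handling cannot be told apart, and in whole tissue fewer cells of a type and less RNA per cell cannot be told apart.

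**Figure D1:**
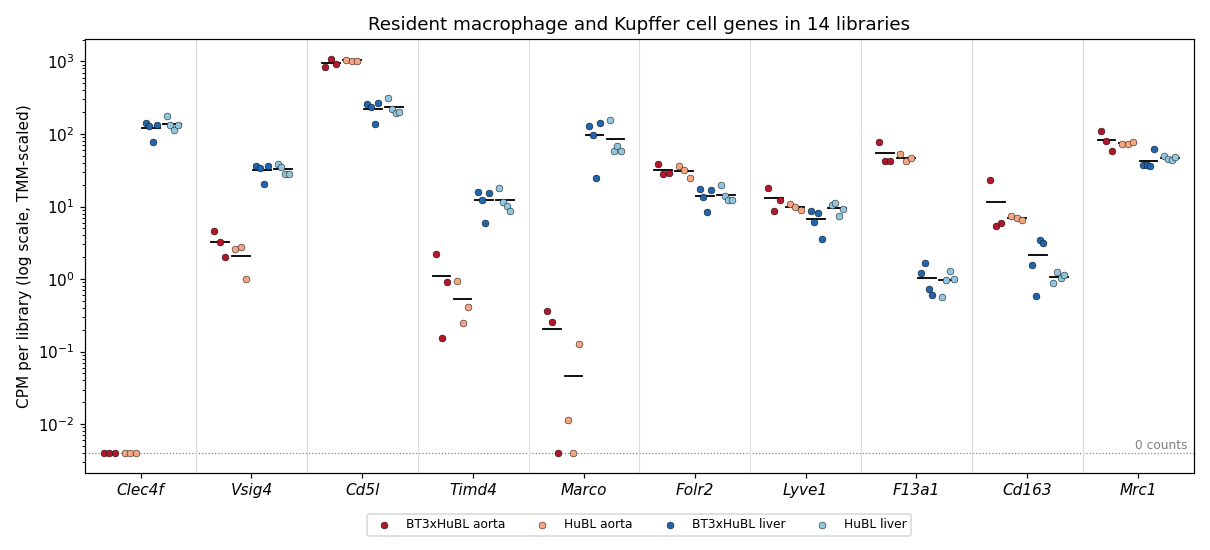
Level of each of the 10 genes in each of the 14 libraries, in TMM-scaled CPM on a log axis, with a bar at the mean of each group; points on the dotted line are libraries with 0 counts. Clec4f is at 0 in all 6 aortas, while Cd5l lies between 834 and 1094 CPM there.

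Clec4f encodes a C-type lectin of Kupffer cells that binds galactose-bearing glycans on desialylated platelets. It had 0 counts in each of the 6 aorta libraries. In liver it measured 143, 127, 78.3 and 132 CPM in BT3xHuBL replicates 1 to 4, against 178, 133, 112 and 131 CPM in HuBL replicates 1 to 4. With 3 counts over each aorta group as the floor, the aorta was at least 10063-fold lower in BT3xHuBL mice and at least 10630-fold lower in HuBL mice. Clec4f was thus the gene of the list measured in 1 tissue only, and within liver the ranges of the genotypes overlapped, with BT3xHuBL replicate 3 the lowest and HuBL replicate 1 the highest.

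Marco encodes a scavenger receptor for bacteria and particles. BT3xHuBL aortas had 28, 23 and 0 counts (0.362, 0.255 and 0 CPM), against 1, 0 and 11 counts in HuBL aortas (0.0114, 0 and 0.129 CPM). In liver Marco measured 127, 98.1, 24.4 and 142 CPM in BT3xHuBL mice, against 155, 59.0, 68.0 and 58.1 CPM in HuBL mice. The aorta values thus rest on few reads, and the liver values spread more than those of Clec4f, with the lowest and the highest library 6.34-fold apart. The log2 fold change of aorta over liver was −8.89 (SE 0.94) in BT3xHuBL mice and −10.59 (SE 1.11) in HuBL mice, with edgeR adjusted p = 2.59e-06 and 2.07e-06.

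Vsig4 encodes a complement receptor of the immunoglobulin family that captures opsonised bacteria. It measured 4.65, 3.20 and 2.02 CPM in BT3xHuBL aortas and 2.59, 2.73 and 0.995 CPM in HuBL aortas. BT3xHuBL livers had 36.3, 34.0, 20.4 and 36.7 CPM and HuBL livers 38.9, 35.0, 28.2 and 27.8 CPM. Every liver library lay above every aorta library, and within each tissue the genotypes overlapped. Aorta over liver, the log2 fold change was −3.28 (SE 0.36) in BT3xHuBL and −3.96 (SE 0.37) in HuBL mice (edgeR adjusted p = 9.98e-07 and 2.10e-07).

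Timd4 encodes a receptor for phosphatidylserine, the lipid that dying cells expose, and marks long-lived resident macrophages. In aorta its level was low, at 2.20, 0.155 and 0.919 CPM in BT3xHuBL and 0.927, 0.250 and 0.410 CPM in HuBL libraries. Counts per library ran from 14 to 170 in BT3xHuBL and from 14 to 81 in HuBL aortas. In liver it measured 16.0, 12.4, 5.93 and 15.3 CPM in BT3xHuBL and 18.2, 11.6, 10.1 and 8.62 CPM in HuBL mice. The log2 fold changes of aorta over liver were −3.52 (SE 0.69) and −4.47 (SE 0.74) in BT3xHuBL and HuBL mice, with edgeR adjusted p = 0.000358 and 8.26e-05. BT3xHuBL aorta 1 held the highest aortic value and BT3xHuBL aorta 2 the lowest, so the spread within 1 group covered the other.

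Cd5l encodes a secreted scavenger protein of macrophages that limits their death under lipid loading and circulates bound to IgM. It was the most abundant of the 10 in both tissues. Aortas measured 834, 1094 and 922 CPM in BT3xHuBL mice and 1047, 1026 and 1021 CPM in HuBL mice. Livers measured 255, 234, 136 and 268 CPM in BT3xHuBL mice and 315, 224, 192 and 202 CPM in HuBL mice. By mean level Cd5l ranked 61 of 18317 features with counts in BT3xHuBL aortas and 56 of 18281 in HuBL aortas, against 748 of 16830 and 756 of 16720 in the livers. The log2 fold change of aorta over liver was 2.09 (SE 0.21) in BT3xHuBL mice and 2.15 (SE 0.21) in HuBL mice, with edgeR adjusted p = 1.95e-07 and 1.42e-07.

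F13a1 encodes the A subunit of coagulation factor XIII, which crosslinks fibrin and is made by resident macrophages and megakaryocytes. BT3xHuBL aortas measured 77.4, 42.5 and 41.8 CPM and HuBL aortas 53.6, 41.9 and 46.6 CPM. In liver the gene was near 1 CPM, with 1.204, 1.65, 0.731 and 0.603 CPM in BT3xHuBL and 0.559, 0.968, 1.31 and 0.989 CPM in HuBL mice. Of the genes higher in aorta, F13a1 had the widest tissue difference, with log2 fold changes of 5.69 (SE 0.30) in BT3xHuBL and 5.64 (SE 0.31) in HuBL mice (edgeR adjusted p = 1.33e-10 and 1.94e-10). The 7 platelet and megakaryocyte genes summed to 8.94 to 14.3 CPM in BT3xHuBL aortas, 7.75 to 12.1 CPM in HuBL aortas, 6.61 to 8.52 CPM in BT3xHuBL livers and 4.96 to 9.26 CPM in HuBL livers. Of 6 tested genes of that list, 2 were called higher in aorta and 0 lower in each genotype. Of all features, 43.3% were called higher in BT3xHuBL and 44% in HuBL mice. The 2 called genes were Gp1bb, a platelet receptor subunit marked as overlapping another gene, and its partner Gp1ba. Gp1bb had log2 fold changes of 5.10 (SE 0.41) in BT3xHuBL and 4.00 (SE 0.38) in HuBL mice, and Gp1ba 2.12 (SE 0.74) and 2.45 (SE 0.78). In HuBL mice 2 genes of the list lay below 0, Ppbp at −0.72 (SE 0.43) and Itga2b at −0.13 (SE 0.19). In BT3xHuBL mice all 6 lay above 0, with Itga2b at 0.16 (SE 0.19). The part of platelets and megakaryocytes in F13a1 was not tested.

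Folr2 encodes the folate receptor beta of resident macrophages. It measured 38.8, 28.1 and 28.8 CPM in BT3xHuBL aortas and 36.7, 31.9 and 24.5 CPM in HuBL aortas, against 17.5, 13.7, 8.53 and 16.7 CPM in BT3xHuBL livers and 19.5, 13.7, 12.3 and 12.4 CPM in HuBL livers. All aortas lay above all livers. The log2 fold change of aorta over liver was 1.17 (SE 0.23) in BT3xHuBL and 1.10 (SE 0.23) in HuBL mice, with edgeR adjusted p = 0.000222 and 0.000409.

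Mrc1 encodes the mannose receptor, which clears glycoproteins and collagen fragments and is also made by liver sinusoidal endothelium. Aortas measured 109.6, 80.6 and 59.0 CPM in BT3xHuBL and 73.6, 71.7 and 76.4 CPM in HuBL mice. Livers measured 37.3, 37.6, 35.7 and 61.3 CPM in BT3xHuBL and 49.0, 45.7, 43.2 and 48.4 CPM in HuBL mice. The tissue ranges touched in BT3xHuBL mice, where liver 4 lay above aorta 3, and were apart in HuBL mice. The log2 fold changes of aorta over liver were 0.95 (SE 0.20) and 0.67 (SE 0.20) in BT3xHuBL and HuBL mice, with edgeR adjusted p = 0.000402 and 0.0058.

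Cd163 encodes the receptor that takes up haemoglobin bound to haptoglobin. It measured 23.0, 5.30 and 5.96 CPM in BT3xHuBL aortas and 7.42, 6.86 and 6.51 CPM in HuBL aortas. In liver it had 1.58, 0.578, 3.41 and 3.09 CPM in BT3xHuBL and 0.878, 1.26, 1.03 and 1.13 CPM in HuBL mice. The BT3xHuBL mean in aorta rests on replicate 1, which lay far above every other aorta library. The log2 fold changes of aorta over liver were 2.39 (SE 0.53) in BT3xHuBL and 2.69 (SE 0.58) in HuBL mice, with edgeR adjusted p = 0.000749 and 0.000642, and limma-voom gave 2.27 and 2.65 with adjusted p = 0.0554 and 0.0543.

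Lyve1 encodes a hyaluronan receptor of arterial resident macrophages that is also made by lymphatic and liver sinusoidal endothelium. BT3xHuBL aortas measured 17.7, 8.68 and 12.3 CPM and HuBL aortas 10.9, 9.87 and 8.93 CPM. BT3xHuBL livers measured 8.80, 6.12, 8.12 and 3.62 CPM and HuBL livers 10.5, 11.03, 7.39 and 9.19 CPM. Ordered by mean, the groups were BT3xHuBL aorta (12.9), HuBL aorta (9.90), HuBL liver (9.52) and BT3xHuBL liver (6.66), and each neighbouring pair overlapped. In BT3xHuBL mice the tissue ranges overlapped too, with aorta 2 (8.68 CPM) below liver 1 (8.80 CPM). The log2 fold change of aorta over liver was 0.95 (SE 0.27, edgeR adjusted p = 0.00408) in BT3xHuBL mice and 0.06 (SE 0.27, adjusted p = 0.846) in HuBL mice. Scaling by library totals, chosen after the data were seen, gave 0.84 with adjusted p = 0.0113 in HuBL mice, where the median of all genes also moved to 0.88.

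Other cell types that make these genes were measured beside them, and their part in the tissue differences was not tested. Of 7 lymphatic endothelial genes, Ccl21a was at 0 in every library, and Prox1, which hepatocytes also make, averaged 0.0554 and 0.106 CPM in BT3xHuBL and HuBL aortas and 57.8 and 44.9 CPM in the livers. The list summed to 82.2 to 91.0 CPM in BT3xHuBL aortas, 79.8 to 99.8 CPM in HuBL aortas, 104 to 138 CPM in BT3xHuBL livers and 78.3 to 91.1 CPM in HuBL livers. Most of the aorta sum was Pdpn, at 69.2 and 73.9 CPM in BT3xHuBL and HuBL aortas, against 0.946 and 0.380 CPM in the livers. Most of the liver sum was Prox1 and Reln, the latter at 39.8 and 26.4 CPM, so the sums of the tissues rest on different genes. Of 7 liver sinusoidal endothelial genes found among the features, 6 were called lower and 1 higher in aorta in each genotype. Of all features, 39.8% were called lower and 43.3% higher in BT3xHuBL mice, and 39% and 44% in HuBL mice. Clec4g, a lectin of those cells, averaged 0.021 and 0.0153 CPM in the aortas and 43.7 and 45.4 CPM in the livers of BT3xHuBL and HuBL mice.

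General macrophage genes were far higher in aorta, and this changes how the levels compare per macrophage transcript. All 14 pan-macrophage genes were called higher in aorta in each genotype, with a median log2 fold change of 3.41 in BT3xHuBL and 3.46 in HuBL mice, against 0.07 and 0.10 for all features. Their summed level was 7474 to 9272 CPM in BT3xHuBL aortas and 7999 to 9533 CPM in HuBL aortas, against 317 to 555 CPM in BT3xHuBL livers and 394 to 577 CPM in HuBL livers. Per 1000 CPM of these genes, Cd5l stood at 115 ± 16.8 in BT3xHuBL and 119 ± 11.6 in HuBL aortas (SD, n = 3 each) and at 488 ± 52.4 and 502 ± 37.1 in the livers (SD, n = 4 each). Folr2, higher in aorta in CPM, was likewise lower in aorta per macrophage transcript, at 3.90 and 3.602 in the aortas of BT3xHuBL and HuBL mice and 30.7 and 31.2 in the livers. Mrc1 stood at 10.3 and 8.55 in the aortas and 96.9 and 102.8 in the livers, Lyve1 at 1.58 and 1.148 against 15.6 and 20.8, and Cd163 at 1.46 and 0.803 against 5.29 and 2.40. F13a1 was the exception among the 10, at 6.67 and 5.52 in the aortas of BT3xHuBL and HuBL mice and 2.34 and 2.18 in the livers. Mrc1 and Lyve1 in liver also come from endothelium, and pan-macrophage genes differ in level between kinds of macrophage, so these ratios describe the transcript mix of a tissue and not levels per cell.

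Other lists of the same biology were set beside the 10 genes, and their counts stand beside the same background of 43.3% of features called higher and 39.8% lower in aorta in BT3xHuBL mice and 44% and 39% in HuBL mice. Of 11 tested genes from a list of other Kupffer cell genes, 5 were called higher and 5 lower in aorta in BT3xHuBL mice, and 4 higher and 5 lower in HuBL mice. C6, a complement component, gave −6.00 (SE 0.35) in HuBL mice, while Slc11a1, an iron and manganese transporter of phagosomes, gave 3.39 (SE 0.14) and Axl, a receptor for dying cells, 2.93 (SE 0.15). Of 16 other resident macrophage genes, 12 were called higher and 4 lower in aorta in each genotype. Pf4, a chemokine of platelets and resident macrophages, gave 4.25 (SE 0.31) in HuBL mice, and Stab1, a scavenger receptor, 1.92 (SE 0.12). Among the 4 lower genes, Selenop, a selenium carrier, gave −3.15 (SE 0.22) in HuBL mice, with 891 CPM in aorta and 7934 CPM in liver. The summed level of the list was therefore lower in aorta, averaging 2114 CPM against 9157 CPM in liver in HuBL mice. Most of that liver sum was Selenop, so the sum does not stand for the 12 genes called higher in aorta. Among 14 tested regulators and growth factors, 5 were called higher and 5 lower in each genotype. Rbpj, the effector of Notch signalling, gave 2.66 (SE 0.10) and Csf1, the main macrophage growth factor, 1.67 (SE 0.10), against −2.11 (SE 0.13) for Nr1h3 and −2.11 (SE 0.12) for its partner Rxra. Of 12 lipid-laden and recruited macrophage genes, 10 were called higher and 0 lower in each genotype. Gpnmb averaged 3323 and 3911 CPM in BT3xHuBL and HuBL aortas and 7.49 and 9.06 CPM in the livers, and Trem2, a lipid receptor of such cells, gave 6.11 (SE 0.25) in HuBL mice.

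BT3xHuBL aortas were then compared with HuBL aortas, which asks whether the added BT3 goes with another macrophage make-up of the vessel wall. None of the 9 genes tested passed. All had an edgeR adjusted p of 0.9999, and 0 of 9 were called against 0.026% of the 15400 features tested (629 features, or 4.08%, had an unadjusted p under 0.05). Fold changes lay above 0 for 8 of 9 genes, with a median of 0.37 on the log2 scale, against −0.0044 for all features. The ranges of the genotypes overlapped for every gene, where 9.42% of all features did not overlap.

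The precision differed widely between genes, as the plot of genotype differences shows. The abundant Cd5l averaged 950.1 ± 132 CPM in BT3xHuBL and 1031 ± 13.8 CPM in HuBL aortas (SD, n = 3 each), or −0.13 on the log2 scale with a 95% interval of −0.38 to 0.12. Folr2 gave 0.03 (−0.39 to 0.44), Mrc1 0.16 (−0.36 to 0.67), F13a1 0.17 (−0.53 to 0.88) and Lyve1 0.37 (−0.19 to 0.92). Cd163 gave 0.71 with an interval of −1.07 to 2.48, and Vsig4 0.64 with −0.35 to 1.62. For the thinly counted Timd4 and Marco the intervals, −1.05 to 3.08 around 1.01 and −1.11 to 5.12 around 2.00, held large changes in either direction.

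**Figure D2:**
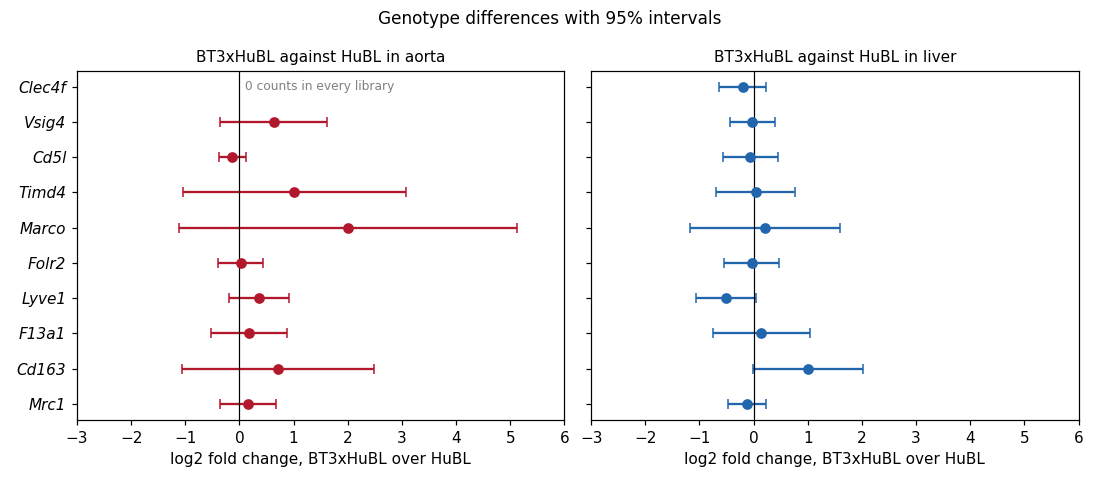
Log2 fold change of BT3xHuBL over HuBL for each gene in aorta (left) and liver (right), with 95% intervals; Clec4f had 0 counts in aorta. Every interval covers 0, and the widest is that of Marco in aorta, from −1.11 to 5.12.

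BT3xHuBL aorta 1 was the highest of 6 for 8 of the 9 genes and the lowest for Cd5l. Without it the log2 fold change was −0.0074 for Timd4, −0.14 for Folr2, −0.18 for F13a1, −0.31 for Cd163, −0.09 for Mrc1 and 0.072 for Lyve1. Vsig4, at 0.30 to 0.89, Marco, at 1.35 to 4.63, and Lyve1, at 0.072 to 0.59, stayed above 0 with any 1 aorta library left out. BT3xHuBL aorta 1 also had the lowest pan-macrophage sum of the 6 (7474 CPM) and the highest adipocyte sum, 514 CPM over 6 genes, against 349 and 426 CPM in the other BT3xHuBL aortas and 362, 414 and 229 CPM in the HuBL aortas. The part of fat tissue around the vessel in these values was not tested. Of 2751 Cd163 counts in BT3xHuBL aortas that library held 1779, and of 260 Timd4 counts 170.

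**Figure D3:**
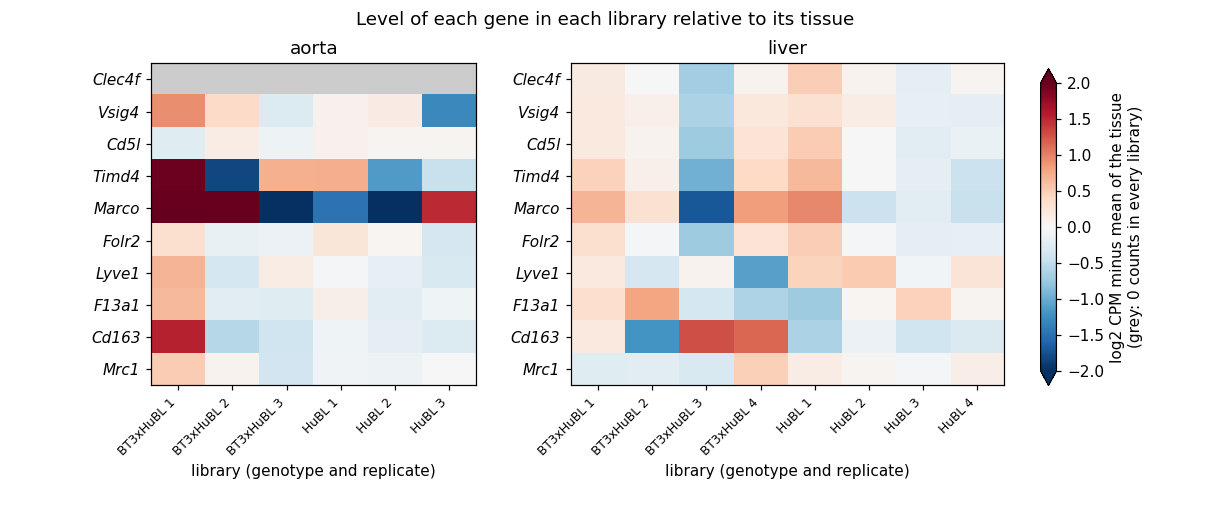
Level of each gene in each library as log2 CPM minus the mean of its tissue, with red above and blue below the mean and the scale ending at −2 and 2. BT3xHuBL aorta 1 is above the mean for 8 of 9 genes, and BT3xHuBL liver 3 is below it for every gene but Lyve1 and Cd163.

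In aorta the related lists had no called gene either, and their values are descriptions. The 14 pan-macrophage genes split evenly, 7 above 0 and 7 below, around a median of −0.01. Other Kupffer cell genes lay above 0 for 10 of 12, with a median of 0.31, and other resident macrophage genes for 13 of 16, with a median of 0.15. Their smallest p-values belonged to Il18bp, which binds interleukin-18 (0.21, SE 0.11), and to Selenop, a selenium carrier counted under an older name (0.18, SE 0.11), and Clec1b, a lectin of Kupffer cells and platelets, gave 0.66 (SE 0.36). Of 14 regulators 11 lay above 0, with Id1, an inhibitor of DNA binding, at 0.54 (SE 0.12) and Nr1h3 at 0.30 (SE 0.09). Lipid-laden and recruited genes lay below 0 for 9 of 12, with a median of −0.10. Within that list Chil3, a chitinase-like protein, measured 4.03 ± 1.22 CPM in BT3xHuBL and 1.37 ± 0.399 CPM in HuBL aortas, and Ly6c2, a marker of inflammatory monocytes, 3.24 ± 0.902 and 9.01 ± 2.55 CPM (SD, n = 3 each). Their edgeR adjusted p was 0.279 for both. Among scavenging partners Mfge8, a bridge to dying cells, gave −0.37 (SE 0.10), and 8 of 13 genes lay above 0. Adipocyte genes lay above 0 for 6 of 6 with a median of 0.50, lymphatic genes for 4 of 5 with 0.33, and platelet genes for 5 of 6 with 0.42. All 5 B cell genes lay below 0, with a median of −0.97 and a sum of 4.19 to 6.40 CPM in BT3xHuBL against 9.04 to 14.2 CPM in HuBL aortas. Of these, Ms4a1, the CD20 antigen, gave −1.79 (SE 0.32) and Cd79a, a chain of the B cell receptor, −1.32 (SE 0.33), with edgeR adjusted p of 0.246 and 0.706 and ranges that did not overlap. T cell genes lay above 0 for 2 of 5, with a median of −0.04. Liver sinusoidal endothelial genes lay above 0 for 6 of 6 with a median of 0.13. Smooth muscle genes did so for 3 of 5 with 0.06 and cavity macrophage genes for 3 of 6 with 0.02. Of 6 hepatocyte genes only 2, Cyp2e1 and Ahsg, were tested, and both lay above 0 with a median of 0.77. The untested ones, Alb among them, were near 0 in aorta. Apoa1 averaged 0.0040 and 0.0366 CPM in BT3xHuBL and HuBL aortas, Serpina1c 0 and 0.0153 CPM, and Ttr 0.0037 and 0 CPM.

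BT3xHuBL livers were compared with HuBL livers in the same way, and none of the 10 genes passed. Adjusted p in edgeR lay between 0.451 and 0.974, and 0 of 10 were called against 0% of 12453 features tested (1381 features, or 11.1%, had an unadjusted p under 0.05, and DESeq2 called 133 features). The median log2 fold change was −0.03, against 0.0092 for all features, with 4 genes above 0 and 6 below. No gene had ranges that did not overlap, where 6.5% of all features did.

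No Kupffer cell gene differed detectably between the genotypes in liver. Clec4f averaged 120.0 ± 28.6 CPM in BT3xHuBL and 138 ± 27.8 CPM in HuBL livers (SD, n = 4 each), or −0.20 on the log2 scale with a 95% interval of −0.64 to 0.23. Vsig4 gave −0.03 (−0.44 to 0.39), Cd5l −0.06 (−0.56 to 0.44), Timd4 0.04 (−0.69 to 0.76) and Folr2 −0.04 (−0.54 to 0.47). Each of these intervals reaches well to both sides of 0. Marco gave 0.21 with an interval of −1.18 to 1.59, F13a1 0.14 with −0.76 to 1.03, and Mrc1 −0.12 with −0.47 to 0.23.

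Cd163 and Lyve1 had the smallest p-values in liver, in opposite directions. Cd163 averaged 2.17 ± 1.33 CPM in BT3xHuBL livers and 1.07 ± 0.161 CPM in HuBL livers (SD, n = 4 each), or 1.01 on the log2 scale (SE 0.46). BT3xHuBL livers 1, 3 and 4 lay above all HuBL livers and BT3xHuBL liver 2 below all of them. Its edgeR p was 0.0505 unadjusted and 0.451 adjusted, on 111 counts in BT3xHuBL and 51 in HuBL livers. Lyve1 averaged 6.66 ± 2.33 CPM in BT3xHuBL and 9.52 ± 1.61 CPM in HuBL livers, a log2 fold change of −0.51 (SE 0.25), with an edgeR p of 0.0691 unadjusted and 0.471 adjusted.

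The question whether the genotype difference itself differed between tissues was tested on all 14 libraries, and no gene passed. Of the 9 genes with counts in both tissues 0 were called, against 0% of 14912 features (1217 features, or 8.16%, had an unadjusted p under 0.05, and DESeq2 called 44). For Lyve1 the genotype effect was 0.89 (SE 0.38) higher in aorta than in liver on the log2 scale. Its adjusted p in edgeR was 0.587, from an unadjusted value of 0.0325 that was the smallest of the 9. It gave 0.37 in aorta and −0.51 in liver when each tissue was fitted alone. Vsig4 gave 0.68 (SE 0.47), Mrc1 0.28 (SE 0.28) and Cd5l −0.06 (SE 0.30).

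Among livers, 6 of the genes varied together from library to library. BT3xHuBL liver 3 was the lowest of 8 livers for Clec4f, Vsig4, Cd5l, Timd4, Marco and Folr2. HuBL liver 1 was the highest for the same 6, which were grouped after their values were seen. Mrc1 was also lowest in BT3xHuBL liver 3, at 35.7 CPM, but highest in BT3xHuBL liver 4. Outside BT3xHuBL liver 3 and HuBL liver 1, BT3xHuBL livers lay above HuBL livers for Marco (98.1 to 142 against 58.1 to 68.0 CPM), Cd5l and Timd4. For Clec4f, Vsig4 and Folr2 those livers overlapped. This order was seen in the values and was not tested. The pan-macrophage sum was also lowest in BT3xHuBL liver 3 (317 CPM) and highest in HuBL liver 1 (577 CPM), with 555, 452 and 492 CPM in the other BT3xHuBL livers and 456, 418 and 394 CPM in the other HuBL livers. Divided by that sum, the ratio of the highest to the lowest liver shrank to 1.35 from 2.27 for Clec4f, to 1.19 from 1.91 for Vsig4, to 1.27 from 2.31 for Cd5l and to 1.27 from 2.29 for Folr2. Timd4 came to 1.69 from 3.07 and Marco to 3.75 from 6.34, so Marco kept the widest spread of the 6. The other genes did not narrow: Lyve1 came to 3.48 from 3.05, F13a1 to 3.77 from 2.96, Cd163 to 8.41 from 5.89 and Mrc1 to 1.86 from 1.72. The 6 genes share their lowest and highest library with the sum, so their narrowing was largely fixed by the grouping. The contrast with the other genes is therefore a description only.

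**Figure D4:**
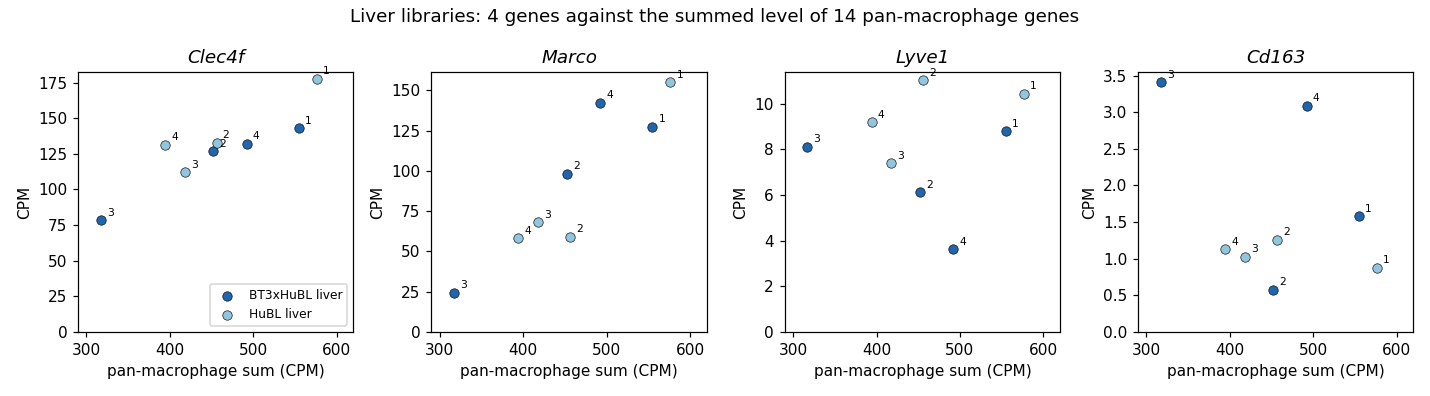
Level of Clec4f, Marco, Lyve1 and Cd163 (CPM, vertical axes from 0) against the summed CPM of 14 pan-macrophage genes in the 8 livers, numbered by replicate. Clec4f and Marco are lowest in BT3xHuBL liver 3, which has a sum of 317 CPM, and highest in HuBL liver 1 at 577 CPM, while Lyve1 and Cd163 do not follow that order.

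Per 1000 CPM of pan-macrophage genes, Clec4f stood at 263 ± 14.4 in BT3xHuBL and 299.9 ± 27.4 in HuBL livers (SD, n = 4 each), with ranges of 247 to 280.4 and 268 to 333 that overlapped. Vsig4 stood at 69.9 ± 5.88 and 70.6 ± 4.38, Timd4 at 26.5 ± 5.42 and 25.8 ± 4.14, and Folr2 at 30.7 ± 2.96 and 31.2 ± 2.01 in BT3xHuBL and HuBL livers. The ratios of Marco were 203 ± 89.8 in BT3xHuBL and 177 ± 62.6 in HuBL livers. No test was made on these ratios.

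Genes whose level followed Clec4f, Vsig4 and Cd5l over the 8 livers were sought as a description. With group means removed, Pearson's r of log2 CPM with Clec4f was 0.99 for Fcer1g, a signalling chain of Fc receptors, and 0.97 for Csf1r, the receptor of macrophage growth factor, which the files mark as overlapping another gene, and for Pld4, Cd86 and Sdc3. Vsig4 was followed by Lyz2, a lysozyme of myeloid cells, Scamp1, Ifi30, Emr4 and Tyrobp, and Cd5l by Ifi30, Sdc3, Ctla2b, Fcer1g and Rac2, with r between 0.96 and 0.99. These are the highest of 9574 genes compared over 8 libraries that share depth and tissue make-up, so they are descriptions. Of the other genes of the list, Cd5l, Folr2, Timd4, Vsig4 and Marco had r of 0.98, 0.97, 0.95, 0.94 and 0.94 with Clec4f, against 0.39 for Mrc1, −0.06 for Lyve1, −0.07 for F13a1 and −0.46 for Cd163.

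The same was done over the 6 aortas. Lyve1 was followed by Acsl1, which activates fatty acids, Ptp4a3, Ptger3, Cd1d1 and Kars, F13a1 by Rhobtb1, Rbms3, Aldh1a3, Sephs2 and Mgl2, a lectin of resident macrophages, and Mrc1 by Orc3, Uvrag, Cadm3, Zbtb8a and Prim2. Their r lay between 0.98 and 1.00 and was the highest of 10328 genes over 6 libraries, in which BT3xHuBL aorta 1 weighs heavily. Among the genes of the list, Lyve1 had r of 0.91 with Timd4, 0.89 with Cd163, 0.83 with F13a1 and 0.77 with Folr2. It had lower r with Mrc1 (0.48), Vsig4 (0.46) and Marco (−0.0088), and −0.91 with Cd5l.

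Lists beside the 10 genes had 0 called genes between the genotypes in liver and in the test of the difference between tissues. In liver 4 of 14 pan-macrophage genes lay above 0, with a median of −0.08. Adgre1, the F4/80 antigen of macrophages, which the files list under its older name Emr1, measured 17.8 ± 3.82 CPM in BT3xHuBL and 12.4 ± 2.20 CPM in HuBL livers (SD, n = 4 each), or 0.53 on the log2 scale (SE 0.18) with an edgeR adjusted p of 0.352. Aif1, an actin-binding protein of macrophages, gave −0.45 (SE 0.18), and Mertk, a receptor for dying cells, 0.32 (SE 0.14). Other Kupffer cell genes lay above 0 for 3 of 11, with a median of −0.14, where Ccl24, a chemokine, gave −0.52 (SE 0.34) and Clec1b −0.34 (SE 0.23). Of 16 other resident macrophage genes 8 were tested in liver, and 5 of these lay above 0. Clec10a, a lectin, gave −1.11 (SE 0.36), at only 0.507 CPM in BT3xHuBL and 1.12 CPM in HuBL livers. Ltc4s, which makes leukotriene C4, gave −1.09 (SE 0.37), at 0.707 and 1.49 CPM. Their edgeR adjusted p was 0.33 and 0.34. Regulators lay above 0 for 6 of 14, lipid-laden and recruited genes for 6 of 12 and scavenging partners for 7 of 14. Stab2, the hyaluronan receptor of sinusoidal endothelium, averaged 46.7 ± 5.21 CPM in BT3xHuBL and 35.9 ± 2.08 CPM in HuBL livers (edgeR adjusted p = 0.281), and 3 of 7 genes of that endothelium lay above 0. All 5 T cell genes lay below 0 in BT3xHuBL livers with a median of −1.11, and all 5 B cell genes with −0.34.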

How the data were processed

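The 14 libraries, from aorta and liver, fall into 4 groups. Per the labels' protocols, libraries were made with Lexogen QuantSeq V2, which reads transcripts near the 3′ end. The values the authors deposited are counts per feature, not normalized, in 1 table per tissue. Reads were counted with HTSeq 2.0 on GRCm38, per the submitters' processing notes. Aligner and gene annotation were not given in the sources used here. Coordinates in the tables were not used, and positions come from GENCODE M21. Counts were between 13228123 and 65539765 per library. The floor (3 counts) covers counting error only, and intervals of fold changes come from the edgeR fit and include the spread between libraries. Libraries of 1 group differed beyond sampling noise, with chi-square values of 12.2 to 75.7 per degree of freedom.

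edgeR 4.0.16 in R 4.3.3 was used with filterByExpr, TMM, a robust quasi-likelihood fit and two-sided F-tests, with Benjamini-Hochberg adjustment over all features tested and a threshold of 0.05. Each tissue was fitted alone for genotype, and all 14 libraries together for the tissue contrasts and the interaction. Fold changes use a prior count of 0.125, and standard errors come from the same fit. No fitted tissue fold is given for Clec4f, because every aorta is at 0 and the fold would depend on the prior count. Clec4f was tested between tissues and is among the genes called. The fits were tested on simulated data. CPM and ratios were computed here from the deposited counts. Similar genes were sought among features with a mean of at least 5 CPM (log2, prior count 2). The text names all 10 genes, up to 4 genes of smallest p per related list (15 lists) and the 5 most similar genes for 6 of the 10. Members and lists were chosen with earlier results of these data known. Marker genes of the 2 tissues and Trav14-1 stand outside that rule. DESeq2 1.42.0, limma-voom (limma 3.58.1), other scalings and filters, the replicate block and each library left out were alternatives. Plots used matplotlib 3.10.9.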

Additional observations from a re-analysis of the deposited data

Results flagged for a closer look

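The highest and lowest library of each gene were checked in the 4-library groups, and 3 of 20 sets had 1 library set apart from the rest by more than Dixon's 95% critical value, where chance gives about 1 in 20. Vsig4 in BT3xHuBL liver 3 was the lowest of its group at 20.4 CPM. Marco in HuBL liver 1 was the highest of its group at 155 CPM. Mrc1 in BT3xHuBL liver 4 was the highest of its group at 61.3 CPM. BT3xHuBL liver 3 and HuBL liver 1 also had the lowest and the highest pan-macrophage sums of the 8 livers, at 317 and 577 CPM, and the part of that sum in these values was not tested. Liver 4 of BT3xHuBL was not extreme in that sum, at 492 CPM.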

How the results depend on the processing

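No gene of the 10 was called between genotypes, in either tissue or in the interaction, under any alternative run. Counts of all features called moved. In aorta, against 4, they were 9 with no low-count filter, 68 with DESeq2 and 14 with the replicate block, and 0 to 27 with 1 library left out. In liver, against 0, they were 133 with DESeq2, 10 with the replicate block, 5 with all 14 libraries in 1 fit, and 0 to 5 with 1 library left out. In the interaction, against 0, DESeq2 called 44, and 0 to 3 were called with 1 library left out. Pairing by replicate number was checked only between the genotypes within a tissue. Same-numbered libraries had correlations of deviations of −0.058, 0.14 and 0.0072 in aorta and of −0.042, 0.16, 0.10 and 0.069 in liver. Differently numbered ones reached 0.14 in aorta and 0.18 in liver. Pairing of aorta with liver libraries was not checked. The labels do not say whether both tissues came from the same mice, and the joint fit treats all 14 libraries as independent.

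Between tissues, Lyve1 in HuBL mice gave −0.076 with the replicate block and −0.044 to 0.13 with 1 library left out, and was called with library totals. Scaling mattered there: library totals moved the median of all features to 0.82 in BT3xHuBL and 0.88 in HuBL mice, and the share of calls that were higher in aorta to 73.5% and 74.1%, against 52.1% and 53.0% with TMM. Of the 10 genes, limma-voom called 9 between tissues in BT3xHuBL and 8 in HuBL mice. In liver, library totals gave 0.016 for Vsig4 and 0.0086 for Folr2.

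Small genotype differences changed sign with 1 library left out. In aorta the ranges were −0.0074 to 1.69 for Timd4, −0.14 to 0.16 for Folr2, −0.18 to 0.33 for F13a1, −0.31 to 1.06 for Cd163 and −0.090 to 0.35 for Mrc1. In liver they were −0.10 to 0.14 for Vsig4, −0.15 to 0.12 for Cd5l, −0.12 to 0.30 for Timd4, −0.017 to 0.67 for Marco, −0.16 to 0.14 for Folr2 and −0.16 to 0.33 for F13a1. In the interaction they were −0.24 to 0.043 for Cd5l, −0.070 to 1.63 for Timd4, −0.11 to 0.21 for Folr2, −0.31 to 0.34 for F13a1 and −1.32 to 0.046 for Cd163. The cause of these changes was not tested. At the depth of the aortas, Marco (51 and 12 counts in BT3xHuBL and HuBL) cannot show differences of moderate size.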
